A study of Mus musculus with 12 samples.

Results

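Matrix glycoproteins and lysyl oxidases are described here through 10 genes, chosen by symbol: Fn1, Postn, Sparc, Tnc, Thbs1, Thbs2, Fbn1, Lox, Loxl1 and Loxl2. All 10 were found in each of the count tables, among 26639 features listed for white adipose tissue (WAT), 22851 for cultured adipocytes and 21669 symbols listed in both. The study asked what Xap5, a nuclear protein whose gene symbol is Fam50a, does in fat cells, and it profiled mRNA of mice by RNA-seq. There were 4 groups of 3 libraries. The first held WAT of WT mice at postnatal day 42, and the second WAT of the same age from Adiponectin-cKO mice, in which Xap5 was deleted by a Cre under the adiponectin promoter. The third and the fourth held pre-adipocytes from subcutaneous WAT of newborn WT or cKO mice, which were grown and taken at day 8 of adipogenic induction with insulin, dexamethasone and IBMX, and these groups are called culture WT and culture KO. Adiponectin is made by adipocytes, so other cells of the tissue, and cultured cells that have not yet matured, are not targets of this Cre. Strain, sex, the alleles carried by the WT mice, and whether replicates came from separate animals or cultures stand in none of the sources used here, so the p-values speak only of the spread among these libraries.

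The space around fat cells is filled with a secreted network of fibres and of glycoproteins that sit on them. Fibronectin (Fn1) is laid down early and holds collagens, growth factors and integrins together, while fibrillin-1 (Fbn1) forms microfibrils that carry elastin and latent TGF-beta. Periostin (Postn), SPARC, tenascin-C (Tnc) and the thrombospondins (Thbs1, Thbs2) are matricellular proteins, which tune contacts between cells and matrix rather than bear load. Lysyl oxidases (Lox, Loxl1, Loxl2) are copper-dependent enzymes that oxidise lysines of collagen and elastin, which makes the fibres crosslink. In adipose tissue such genes are best known from fibroblasts and pre-adipocytes, and from the fibrosis that accompanies inflamed fat.

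Promoter sequences in RefSeq (GRCm38.p6) were matched for 5 of the 10 genes, namely Postn, Sparc, Tnc, Thbs2 and Fbn1. The 150 bases before a start site are shown for the gene with the largest change in WAT (Postn), for a second gene that rose there (Thbs2), for the gene that fell there (Sparc) and for the gene that did not pass there (Tnc). Capitals mark 2 of the motifs searched on both strands: the TATA box, with the letters TATAAA, and a form of the SMAD-binding element, with the letters CAGACA. On the opposite strand the former reads TTTATA and the latter TGTCTG. The windows are 3:54360957-54361106 on the plus strand for Postn, and on the minus strand 17:14694263-14694412 for Thbs2, 11:55420081-55420230 for Sparc and 4:64046937-64047086 for Tnc.
Postn: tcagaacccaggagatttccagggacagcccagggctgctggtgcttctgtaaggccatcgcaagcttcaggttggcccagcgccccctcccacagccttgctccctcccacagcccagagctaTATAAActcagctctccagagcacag
Thbs2: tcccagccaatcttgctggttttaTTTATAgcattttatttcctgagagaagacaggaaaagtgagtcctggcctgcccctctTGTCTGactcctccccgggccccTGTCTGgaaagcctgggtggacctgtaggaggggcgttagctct
Sparc: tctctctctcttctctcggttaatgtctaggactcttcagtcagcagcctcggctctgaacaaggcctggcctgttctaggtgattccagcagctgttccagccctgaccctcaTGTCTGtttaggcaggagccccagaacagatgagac
Tnc: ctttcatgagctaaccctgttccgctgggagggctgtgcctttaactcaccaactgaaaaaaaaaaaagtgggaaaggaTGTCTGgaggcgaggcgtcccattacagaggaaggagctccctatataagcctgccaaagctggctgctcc

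TATAAA was held by 3 of the 5 matched genes and by 7.57% of the 32851 promoter windows of the same length. Genes were counted over all their windows, so these counts of genes are not like the shares of single windows. In Thbs2, on the opposite strand, and in Tnc, on its own strand, TATAAA lay 126 bases before the start. Only these exact letters were searched. In Postn TATAAA lay 26 bases before the inner of its 2 starts, on the gene's own strand. The window of its outer start (3:54359117-54359266) held none. CAGACA was held by 3 of the 5 (Sparc, Tnc and, at 2 places, Thbs2) and by 10.3% of all windows. The Sp1 box GGGCGG (28.6% of windows), the AP-1 site TGANTCA (4.24%) and the TEAD site GGAATG (7.59%) were in none of the 5. Tnc and Postn each have 2 start sites in the table, and the TATAAA of Tnc lies in the window of its other start. These matches describe letters only.

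The libraries held 28844370 to 33997204 counts each in WAT and 10863158 to 21773610 in culture, where KO replicates 2 and 3 were the deepest. The lowest count of any of the 10 genes was 286. Fam50a, the targeted gene, measured 34.8 ± 2.09 CPM (SD, n = 3) in WAT WT and 23.0 ± 6.07 in cKO. CPM are counts scaled to library size and by TMM factors. The log2 fold change was -0.60 (SE 0.20, adjusted p = 0.0395). The factors were 0.781 to 0.796 in WAT WT and 1.23 to 1.30 in cKO, which raises WT levels and lowers cKO levels. Library size only moved the median of all WAT genes from 0.12 to 0.80. The fall of Fam50a in WAT therefore depends on the scaling, and its value with library size only is not given here. In culture Fam50a measured 51.7 ± 6.33 CPM in WT and 43.4 ± 2.58 in KO. The difference of -0.26 (SE 0.12, adjusted p = 0.134) did not pass. Reads outside the deleted part of the gene would still be counted. Adipocyte markers were present in every library. In WAT their summed level was 72507 to 74414 CPM in WT and 13730 to 31768 in cKO, and 9 of 12 fell. Macrophage markers summed to 423 to 650 CPM in WT and 1999 to 4255 in cKO, and 10 of 12 rose. The cKO replicate 3 stood apart, with epithelial and mesothelial marker sums of 759 and 272 CPM against at most 35.5 and 22.5 in the other WAT libraries. Skeletal muscle markers summed to 1863 CPM in WT replicate 3 and 1471 in cKO replicate 1 against at most 261 in the others, and Schwann markers to 914 in WT replicate 1 against 269 and 331 in the other WT libraries.

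In WAT of cKO mice, 8 of the 10 genes were higher than in WT and 1 was lower, and the 10th (Tnc) did not pass the test. The test passed for 52.4% of all genes in this comparison, 28.2% as higher and 24.2% as lower, so large numbers of genes moved in this tissue. The median log2 fold change was 1.26 over the 10 genes and 0.12 over the 16293 genes tested. Postn rose the most, followed by Fn1 and Thbs2. The groups did not overlap for any of the 10 genes, which held for 35.1% of all genes as higher in cKO and for 29.3% as lower. In bulk RNA, fewer cells of a type and less RNA per cell cannot be told apart, and the macrophage and adipocyte marker sums above moved in the same libraries. So did others. Of 12 fibroblast and preadipocyte markers 5 rose, among them Dpp4 (2.46) and Fap (2.36), and 1 fell, the actin-severing gene Gsn (-1.72). Their sum was 12167 to 14120 CPM in WT and 4838 to 5226 in cKO. Gsn made up most of that sum, at a mean of 12167 of 13207 CPM in WT and 3699 of 4996 in cKO. The sum therefore follows Gsn and says little of the other markers. Endothelial markers summed to 1288 to 1815 CPM in WT and 704 to 1064 in cKO (7 of 10 fell). Schwann markers summed to 269 to 914 and 944 to 1038 (6 of 10 rose, but 10 without WT replicate 1 and 2 without WT replicate 2 or 3). Smooth muscle and pericyte markers summed to 902 to 1139 and 584 to 847 (1 of 10 rose and 2 fell). Of the mesothelial markers 1 of 3 measured rose and 1 fell, of the epithelial 0 of 6 passed, and of the skeletal muscle markers 1 of 8 rose. With library size only, 10 fibroblast and 7 smooth muscle markers rose, and endothelial markers gave 1 that rose and 1 that fell. Under that scaling 54.2% of all genes rose, and 63% passed in either direction. The part of these cell types in the results was not tested.

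**Figure D1:**
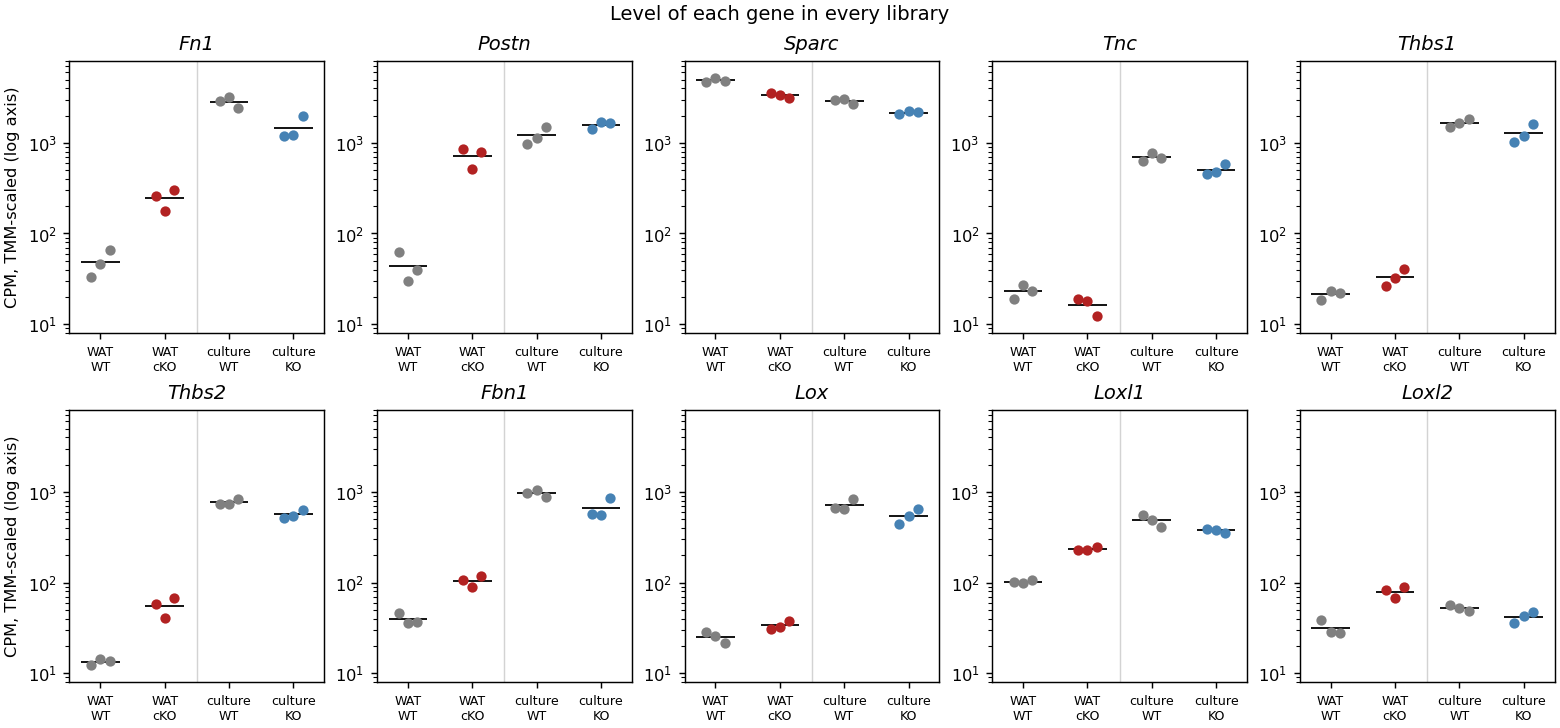
Level of each of the 10 genes in every library, as CPM scaled by TMM factors on a log axis. Points are libraries and bars group means (n = 3); the grey line parts the tables, which were scaled separately. Postn, Fn1 and Thbs2 show the widest gaps in WAT, and in culture only Postn has its KO mean above WT.

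Among the fibre-forming glycoproteins, fibronectin rose the most. Fn1 (chromosome 1, 71585473 to 71653280, minus strand, GRCm38) was at 32.9, 46.6 and 66.3 CPM in the 3 WT libraries and at 261, 177 and 304 in the cKO libraries. The lowest cKO library, replicate 2, was still above every WT library. The log2 fold change was 2.35 (SE 0.31, adjusted p = 0.00122), a ratio of 5.09. Fbn1 (chromosome 2, 125300594 to 125506485, minus strand), whose C-terminal end is also released as the hormone asprosin, was at 46.7, 35.6 and 36.9 CPM in WT and 108, 88.4 and 117 in cKO. It rose by 1.40 (SE 0.17, adjusted p = 0.000919).

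The matricellular genes went in different directions. Periostin, which binds collagen and fibronectin, had the largest change of the 10. Postn (chromosome 3, 54359267 to 54391041, plus strand) was at 62.1, 30.0 and 39.7 CPM in WT and 863, 518 and 785 in cKO. Each cKO library was above the highest WT library by more than the whole spread of the WT group. The log2 fold change was 4.04 (SE 0.34, adjusted p = 0.000527), a 16.4-fold difference.

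The thrombospondins are trimeric or pentameric glycoproteins that bind CD36, CD47 and integrins, and thrombospondin-1 can activate latent TGF-beta. Thbs2 (chromosome 17, 14665500 to 14694262, minus strand) was at 12.5, 14.2 and 13.6 CPM in WT and 58.0, 40.2 and 67.4 in cKO. It rose by 2.04 (SE 0.20, adjusted p = 0.000633). Thbs1 (chromosome 2, 118111876 to 118127133, plus strand) was at 18.4, 23.2 and 22.2 CPM in WT and 26.1, 32.3 and 40.4 in cKO, a rise of 0.63 (SE 0.19, adjusted p = 0.0256). The order of this pair turned over: per kilobase, the ratio of Thbs1 to Thbs2 was 1.49, 1.64 and 1.64 in WT and 0.453, 0.809 and 0.604 in cKO.

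SPARC, a collagen-binding protein that adipocytes make in large amounts, fell in cKO, and tenascin-C, a large glycoprotein of injured and growing tissue, did not pass. Sparc (chromosome 11, 55394159 to 55420080, minus strand) was at 4654, 5262 and 4877 CPM in WT and 3557, 3383 and 3137 in cKO. All 3 cKO libraries lay below the WT range, and the log2 fold change was -0.55 (SE 0.20, adjusted p = 0.0485). Tnc (chromosome 4, 63959785 to 64047015, minus strand) was at 18.8, 26.7 and 23.3 CPM in WT and 18.7, 18.0 and 12.2 in cKO, a difference of -0.49 (SE 0.21, adjusted p = 0.0896). With library size as the only scaling, Sparc (0.13, adjusted p = 0.582) and Tnc (0.18, adjusted p = 0.462) had the opposite sign.

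The crosslinking enzymes were higher in cKO. Loxl1 (chromosome 9, 58287723 to 58313212, minus strand), the member of the family best known for elastin, had the tightest replicates. It was at 101, 98.0 and 108 CPM in WT and 228, 226 and 249 in cKO, a rise of 1.20 (SE 0.11, adjusted p = 0.000621). Loxl2 (chromosome 14, 69608692 to 69695834, plus strand), which acts on collagen IV and has scavenger receptor domains, was at 38.3, 28.5 and 28.1 CPM in WT and 83.5, 67.2 and 88.3 in cKO. Its log2 fold change was 1.33 (SE 0.18, adjusted p = 0.00129), close to that of Loxl1. Lox, the founding member, was at 28.4, 25.5 and 21.3 CPM in WT and 30.8, 32.4 and 37.9 in cKO, and it rose by 0.43 (SE 0.15, adjusted p = 0.0482). After a trend with transcript length and GC content was removed in each library, the Lox value was -0.39 (adjusted p = 0.0678).

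Fn1, Postn, Thbs2, Fbn1, Loxl1 and Loxl2 passed in WAT under all 14 alternative settings, whereas Thbs1 passed under 9, Sparc under 5 and Lox under 4. The Lox call was lost without any 1 library but WT replicate 1 (0.32 to 0.52 over the 6), the Sparc call without any but cKO replicate 2 (-0.61 to -0.51), and the Thbs1 call without any 1 WT library or without cKO replicate 3 (0.45 to 0.75), so that 6 of the 10 passed without cKO replicate 3, all higher. Of all genes 44.7% passed without cKO replicate 3, 23.1% as higher.

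**Figure D2:**
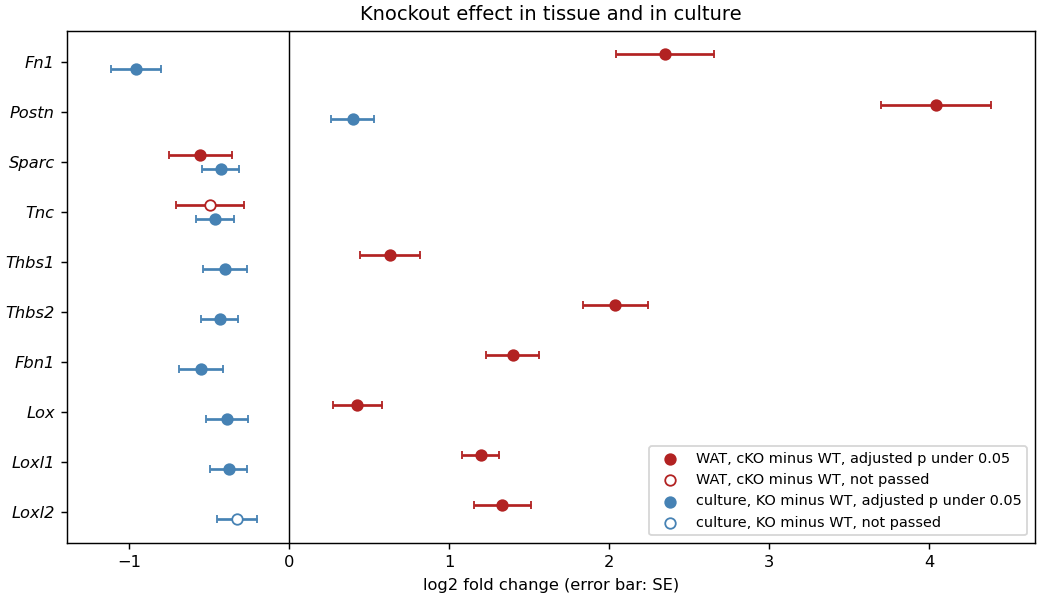
Log2 fold change of knockout against WT for each of the 10 genes, in WAT (red) and in culture (blue), with SE bars; open points did not pass at adjusted p under 0.05. In WAT 8 values are above 0 and in culture 9 are below 0; Sparc and Tnc are below 0 in both on this scale, and above 0 in WAT with library size as the only scaling.

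In culture the direction was mostly the other one. Of the 10 genes, 8 fell in KO, 1 rose (Postn) and Loxl2 did not pass. Over all 12587 genes tested, 19.5% passed, 10.6% as lower and 8.94% as higher. The changes were small: the median log2 fold change was -0.41 over the 10 genes and -0.02 over all genes. The groups did not overlap for 7 genes, all lower in KO, against 18.8% of all genes that were lower and 18.0% that were higher without overlap. Marker sums moved here too: adipocyte markers summed to 28755 to 29847 CPM in WT and 36434 to 41561 in KO (5 of 11 rose), and macrophage markers to 3097 to 3395 in WT and 2203 to 2583 in KO (5 of 12 fell). Fibroblast and preadipocyte markers summed to 6487 to 8013 CPM in WT and 6768 to 7434 in KO. Gsn made up most of this sum too, at a mean of 5993 of 7262 CPM in WT and 6073 of 7092 in KO. Of the 11 measured, 4 fell (Pdgfrb, Cd248, Thy1 and Ly6a), but 0 without WT replicate 2 and 2 without KO replicate 1. Endothelial markers summed to 383 to 485 and 305 to 351 (3 of 10 fell), smooth muscle and pericyte markers to 1526 to 1834 and 1739 to 2130 (2 of 9 rose and 2 fell), and Schwann markers to 36.2 to 37.2 and 19.2 to 32.1 (1 of 6 fell). Neither the 2 skeletal muscle markers nor the 1 mesothelial marker that were measured passed, and epithelial markers summed to at most 0.924 CPM, with Krt8, Krt18, Krt14 and Krt5 at 0. The part of these cell types in the results was not tested.

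Fibronectin had the largest change in culture. Fn1 was at 2896, 3208 and 2444 CPM in WT and 1201, 1232 and 1974 in KO. The groups did not overlap, although KO replicate 3 was well above the other KO libraries. The log2 fold change was -0.96 (SE 0.15, adjusted p = 0.000227), which places WT 1.94-fold above KO. Fbn1 was at 968, 1051 and 877 CPM in WT and 570, 558 and 851 in KO. It fell by 0.55 (SE 0.14, adjusted p = 0.00771), and KO replicate 3 lay close under the lowest WT library.

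Of the matricellular genes, Sparc was at 2968, 3075 and 2678 CPM in WT and 2074, 2231 and 2181 in KO, which is a fall of 0.43 (SE 0.11, adjusted p = 0.0112). Tnc was at 631, 773 and 685 CPM in WT and 458, 472 and 584 in KO, a log2 fold change of -0.46 (SE 0.12, adjusted p = 0.00915). Thbs2 was at 730, 733 and 834 CPM in WT and 512, 549 and 639 in KO, and it fell by 0.43 (SE 0.12, adjusted p = 0.0108). For these 3 genes all KO libraries lay below all WT libraries. Thbs1 overlapped between groups: it was at 1514, 1661 and 1852 CPM in WT and 1031, 1178 and 1604 in KO, and its log2 fold change was -0.40 (SE 0.14, adjusted p = 0.0433). Postn, in contrast, was at 975, 1142 and 1505 CPM in WT and 1424, 1682 and 1665 in KO. Its groups overlapped through WT replicate 3, and it rose by 0.40 (SE 0.14, adjusted p = 0.0402).

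The lysyl oxidases had values of similar size in culture. Lox was at 660, 642 and 839 CPM in WT and 445, 547 and 645 in KO, with an overlap of the groups by a few CPM and a log2 fold change of -0.39 (SE 0.13, adjusted p = 0.0417). Loxl1 was at 558, 493 and 416 CPM in WT and 390, 383 and 355 in KO, and it fell by 0.38 (SE 0.12, adjusted p = 0.0259) without overlap. Loxl2 was at 56.3, 51.8 and 48.9 CPM in WT and 35.4, 42.3 and 47.2 in KO. Its difference of -0.32 (SE 0.12, adjusted p = 0.0647) did not pass, although the groups did not overlap.

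These calls rested on few libraries: 8 of the 10 genes passed without WT replicate 3 or without KO replicate 3, 5 without WT replicate 1 or KO replicate 1, and 2 without WT replicate 2 (Fn1 and Thbs2) or KO replicate 2 (Fn1 and Sparc). The share of all genes that passed moved too, from 19.5% with all libraries. It was 26.7% without WT replicate 3 and 16% without KO replicate 3. Without WT replicate 1 or KO replicate 1 it was 11.8% and 12%, and without WT replicate 2 or KO replicate 2 it was 7.04% and 11.9%. After correction for length and GC content 5 passed (Postn higher; Fn1, Sparc, Thbs2 and Lox lower), and in 1 edgeR fit over all 4 groups, where the spread in WAT enters, none of the 10 did at an adjusted p and 7 did at an unadjusted p under 0.05, while DESeq2 and limma voom on the culture table called 9 each. Of all genes, 20.9% passed after that correction and 1.01% in the fit over all 4 groups. DESeq2 called 19.5% of all genes and limma voom 19.6%.

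**Figure D3:**
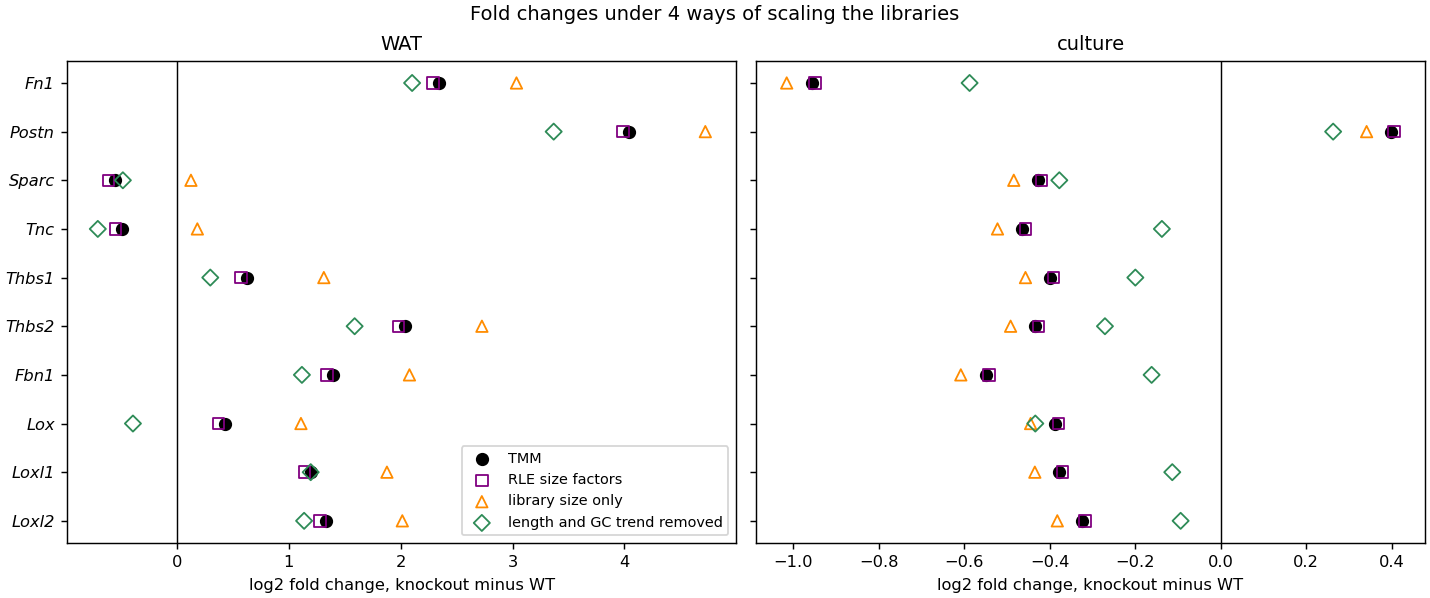
Log2 fold change of each gene under TMM, RLE size factors, library size only, and TMM with a per-library length and GC trend removed, for WAT (left) and culture (right); the x axes differ in range. In WAT, Sparc and Tnc change sign with library size only and Lox with the trend removed, while no gene changes sign in culture.

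The effect of the knockout differed between tissue and culture for 8 of the 10 genes, by the interaction test over all 12 libraries (WAT effect minus culture effect). All 8 had the larger effect in WAT. Over the 14463 genes in this fit, 48.8% passed, 27.7% with the WAT effect above the culture effect and 21.1% below, and the median difference was 0.22 against 1.65 for the 10 genes. Postn had the widest difference at 3.68 (SE 0.38, adjusted p = 1.79e-05), since it rose in both settings but by far more in WAT. Fn1 followed at 3.34 (SE 0.40, adjusted p = 3.92e-05), with opposite directions in WAT and culture. Thbs2 differed by 2.51 (SE 0.24, adjusted p = 1.22e-05) and Fbn1 by 1.98 (SE 0.26, adjusted p = 7.63e-05).

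Among the enzymes, the difference was 1.69 for Loxl2 (SE 0.22, adjusted p = 7.62e-05), 1.61 for Loxl1 (SE 0.17, adjusted p = 2.23e-05) and 0.85 for Lox (SE 0.24, adjusted p = 0.0102). Thbs1 differed by 1.06 (SE 0.27, adjusted p = 0.00641). Sparc (-0.09, SE 0.19, adjusted p = 0.708) and Tnc (0.00, SE 0.26, adjusted p = 1.00) did not pass, so that no difference of their effects was detectable here; with library size only, both passed at 0.56 and 0.65. The 8 calls were made without any 1 library, and after correction for length and GC content those of Thbs1 (0.48, adjusted p = 0.127) and Lox (-0.01, adjusted p = 0.998) were lost.

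The make-up of the 10 transcripts can be read within a library, without any scaling between libraries, from levels per kilobase of transcript (CPM per kb). In WAT WT, Sparc stood first at 2144 ± 134 CPM per kb (SD, n = 3), followed by Loxl1 at 31.1 ± 1.51 and Postn at 13.7 ± 5.14. These 3 did not overlap with each other or with the rest. With the longest transcript of any kind as length, however, the share of Postn in the sum of the 10 (0.244% to 0.567%) overlapped with those of Fn1, Loxl2 and Lox. Loxl2 (5.95), Fn1 (5.84) and Lox (5.29) overlapped, as did Thbs1 (3.64), Fbn1 (3.32) and Tnc (3.23), and Thbs2 came last at 2.28 ± 0.153. In WAT cKO the order was Sparc (1460), Postn (225), Loxl1 (71.2), Fn1 (29.7), Loxl2 (15.0), Thbs2 (9.37), Fbn1 (8.72), Lox (7.11), Thbs1 (5.63) and Tnc (2.29). The first 5 did not overlap with each other or with those below, Thbs2, Fbn1, Lox and Thbs1 each overlapped with the next, and Tnc lay below all others. Postn had moved above Loxl1.

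As a share of the summed per-kilobase level, Sparc took 96.2%, 97.1% and 96.6% in WAT WT and 78.7%, 83.4% and 76.8% in cKO. Postn took 0.921%, 0.397% and 0.564% in WT and 13.7%, 9.17% and 13.8% in cKO. The groups did not overlap for either share, and the two-sided exact permutation test gave p = 0.1 for each, the smallest that 3 against 3 can reach, among 20 such tests. The share of Loxl1 was 1.40% ± 0.125 in WT and 3.89% ± 0.367 in cKO, and that of Fn1 0.263% ± 0.0901 and 1.62% ± 0.427, again with an exact permutation p = 0.1. Without Sparc, the other 9 genes summed to 328 to 360 CPM in WT and to 1200 to 1701 in cKO.

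**Figure D4:**
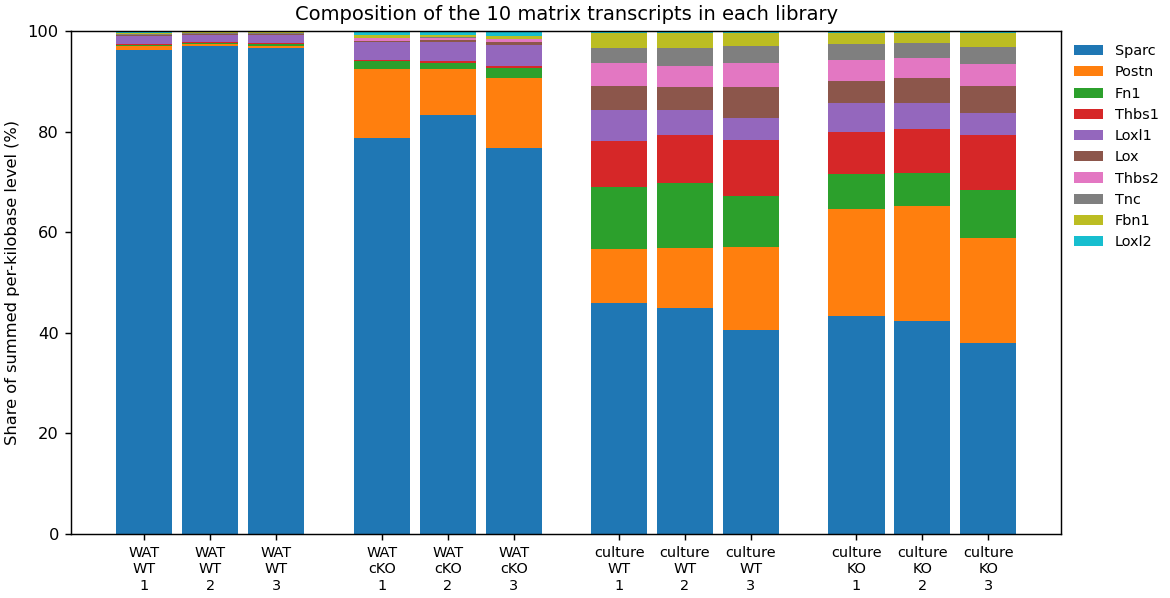
Share of each gene in the summed per-kilobase level of the 10 genes, in percent, 1 stacked bar per library. Sparc fills over 96% of each WAT WT bar and 76.8% to 83.4% of the cKO bars, with Postn as the second share; in culture the KO bars hold more Postn and less Fn1 than WT.

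The cultures had another make-up. In culture WT the order per kilobase was Sparc (1264), Postn (377), Fn1 (343), Thbs1 (287), Lox (151), Loxl1 (148), Thbs2 (130), Tnc (98.0), Fbn1 (80.6) and Loxl2 (9.85). Postn, Fn1 and Thbs1 overlapped with their neighbours, as did Lox, Loxl1 and Thbs2, and the other 4 genes stood clear of theirs. With the longest transcript of any kind as length, the mean share of Postn (8.45%) lay below those of Fn1 (12.5%) and Thbs1 (10.5%). In culture KO it was Sparc (940), Postn (496), Thbs1 (217), Fn1 (177), Lox (115), Loxl1 (114), Thbs2 (96.2), Tnc (71.0), Fbn1 (55.1) and Loxl2 (7.83), where Thbs1 and Fn1 overlapped, as did Lox, Loxl1 and Thbs2, and Tnc with Fbn1, while Sparc, Postn and Loxl2 stood clear. The share of Postn was 13.1% ± 2.94 in WT and 21.7% ± 1.09 in KO, and that of Fn1 11.9% ± 1.42 and 7.64% ± 1.65. Neither overlapped between groups (exact permutation p = 0.1 for both). Sparc's share was 43.8% ± 2.80 in WT and 41.2% ± 2.80 in KO (exact permutation p = 0.4). The ratio of Postn to Fn1 per kilobase was 0.874, 0.923 and 1.60 in WT and 3.08, 3.54 and 2.19 in KO.

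The ratio of Loxl1 to Lox set tissue and culture apart: it was 5.13, 5.53 and 7.27 in WAT WT and 1.22, 1.10 and 0.713 in culture WT. In WAT cKO it was 10.6, 10.0 and 9.45, above all WT libraries, and in culture KO it was 1.26, 1.01 and 0.792, overlapping with WT. On a common scale over all 12 libraries, the mean level in culture WT was above that in WAT WT by 84.9-fold for Thbs1, 63.3-fold for Fn1, 61.4-fold for Thbs2, 29.6-fold for Postn and 1.78-fold for Loxl2, whereas Sparc was 1.57-fold higher in WAT WT. No test was made of these levels, because the tables list different features. Likewise for the group means over this scale, the cKO values of Postn (769) and Fn1 (264) lay between those of WAT WT (45.5 and 50.3) and culture WT (1347 and 3181 CPM).

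Each gene was also matched to the genes with the most similar group means, by the Euclidean distance between the 4 centred group means of log2 CPM among 10749 genes. Within the 10, Fn1 and Thbs2 were nearest to each other (0.59), then Tnc and Lox (0.85), and Postn lay farthest from its nearest member, Fn1 (2.00). Outside the 10, the nearest gene was Ccl2, a monocyte-attracting chemokine, to Fn1 (0.40), the versican gene Vcan to Thbs2 (0.31), and the scavenger receptor gene Msr1, one of the macrophage markers, to Postn (0.33). Fkbp10, a chaperone of collagen folding, was nearest to Loxl1 (0.04), and the fibulin gene Fbln2 to Lox (0.23). The nearest were Pfkfb3 to Sparc (0.06), Mt2 to Tnc (0.22), Zfp469 to Thbs1 (0.22), Slc7a5 to Fbn1 (0.18) and Dennd4b to Loxl2 (0.07). These distances rest on 4 groups and carry no test.

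Related genes in 5 lists show what surrounded the 10 genes. Of all genes tested, 28.2% rose and 24.2% fell in WAT, and 8.94% rose and 10.6% fell in culture. With library size only, 54.2% of all genes rose in WAT, with a median of 0.80. The counts of each list stand beside these shares. Close relatives in the same families numbered 14 of 15 measured in WAT, of which 7 rose and 2 fell, with a median log2 fold change of 1.26 (10 and 2 with library size only, median 1.94). Fstl1, a SPARC-related secreted protein, rose by 1.73 (SE 0.16, adjusted p = 0.000583) and the lysyl oxidase Loxl3 by 1.56 (SE 0.18, adjusted p = 0.000894). Smoc1, another SPARC relative, fell by 2.54 (SE 0.30, adjusted p = 0.000910), from 488 ± 32.7 to 83.6 ± 36.6 CPM. In culture 3 of 13 relatives fell and none rose by edgeR (median -0.30), and 5 fell without WT replicate 3. They were the tenascin-X gene Tnxb (-0.83, SE 0.15, adjusted p = 0.000605), the second fibrillin gene Fbn2 (-0.65, SE 0.16, adjusted p = 0.00646) and Smoc1 (-0.45, SE 0.12, adjusted p = 0.0110). The first pair lost their calls after correction for length and GC content (adjusted p = 0.0892 and 0.101), and Smoc1 without WT replicate 2, KO replicate 1 or KO replicate 2 (adjusted p up to 0.10).

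Partners of elastic fibres and microfibrils, all 20 measured, held 13 that rose and 4 that fell in WAT (median 0.89), against 28.2% and 24.2% of all genes. With library size only 16 rose and 1 fell (median 1.57), and 2 fell without WT replicate 1 or 2 or without cKO replicate 1 or 3. The fibulin Efemp1 rose by 2.17 (SE 0.20, adjusted p = 0.000604), Emilin2, an elastin-associated glycoprotein, by 1.89 (SE 0.19, adjusted p = 0.000661), and Bmp1, the protease that frees active lysyl oxidase from its precursor, by 1.58 (SE 0.19, adjusted p = 0.000980). In culture 8 of 20 fell and none rose (median -0.33), but 3 fell without WT replicate 1 or 2 and 5 without KO replicate 2. Among the 8 were Fbln2 (-0.65, SE 0.13, adjusted p = 0.00113), Bmp1 (-0.55, SE 0.11, adjusted p = 0.00185) and Ltbp4, which binds latent TGF-beta (-0.55, SE 0.13, adjusted p = 0.00565; not passed after correction for length and GC content, adjusted p = 0.330, or without WT replicate 1, adjusted p = 0.0523). Bmp1 was at 38.6, 38.2 and 36.0 CPM in WAT WT and 109, 85.9 and 142 in cKO, and at 297, 304 and 244 in culture WT and 205, 187 and 186 in KO. Its groups thus parted in opposite directions in tissue and culture, and the interaction passed (2.16, SE 0.23, adjusted p = 2.02e-05).

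Receptors for these matrix proteins showed a similar count, with 13 of 19 higher and 1 lower in WAT (median 1.29), against 28.2% and 24.2% of all genes. The median was 1.97 with library size as the only scaling, where 17 rose and 0 fell. The collagen receptor Ddr2 rose by 1.92 (SE 0.12, adjusted p = 0.000413) and the syndecans Sdc1 and Sdc3 by 3.01 (SE 0.34, adjusted p = 0.000808) and 1.64 (SE 0.23, adjusted p = 0.00152). In culture 7 of 19 fell and 1 rose (median -0.25), against 10.6% and 8.94% of all genes. The scavenger receptor Stab1, also expressed by macrophages, fell by 1.33 (SE 0.14, adjusted p = 8.87e-07), Sdc3 by 1.09 (SE 0.15, adjusted p = 2.57e-05) and the endocytic receptor Lrp1 by 1.00 (SE 0.16, adjusted p = 0.000178).

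TGF-beta ligands, receptors and response genes held 7 of 15 that rose and 1 that fell in WAT (median 0.72), against 28.2% and 24.2% of all genes. With library size only 13 rose and 0 fell (median 1.40). The receptor Tgfbr1 rose by 1.63 (SE 0.22, adjusted p = 0.00136), a call lost after correction for length and GC content (0.51, adjusted p = 0.0872), the binding protein Ltbp1 by 1.28 (SE 0.26, adjusted p = 0.00573) and the ligand Tgfb1 by 1.10 (SE 0.25, adjusted p = 0.00874). In culture 4 of 15 fell and 1 rose (median -0.23), but 2 fell without WT replicate 1 or 2 or without KO replicate 2, and 7 without WT replicate 3. The inhibitor Smad7 fell by 0.60 (SE 0.13, adjusted p = 0.00236) and the receptor Tgfbr2 by 0.52 (SE 0.12, adjusted p = 0.00597), while Tagln, a contractile gene, rose by 0.49 (SE 0.12, adjusted p = 0.00555).

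Of the 12 basement membrane genes, 4 fell and 1 rose in WAT (median -0.10), against 24.2% and 28.2% of all genes. With library size only 6 rose and none fell (median 0.58), but 54.2% of all genes rose under that scaling, with a median of 0.80. Only 1 fell without WT replicate 2 or without cKO replicate 1, and 2 without WT replicate 3. Lamb2 fell by 0.90 (SE 0.12, adjusted p = 0.00146) and Col4a2 by 0.70 (SE 0.18, adjusted p = 0.0143), calls that library size only did not give (-0.22, adjusted p = 0.146, and -0.02, adjusted p = 0.928), and Lama2 rose by 1.12 (SE 0.24, adjusted p = 0.00727). Col4a2 moreover did not pass once WT replicate 2 was left out (-0.62, adjusted p = 0.0573) or cKO replicate 1 (-0.67, adjusted p = 0.0675), nor did Lama2 after correction for length and GC content (0.56, adjusted p = 0.0555). In culture 9 of 12 fell and none rose (median -0.55), led by the perlecan gene Hspg2 (-1.21, SE 0.18, adjusted p = 0.000109), Agrn (-0.79, SE 0.15, adjusted p = 0.000951) and Lamc1 (-0.65, SE 0.13, adjusted p = 0.00163). Hspg2 was at 847, 872 and 547 CPM in WT and 238, 279 and 461 in KO, where WT replicate 3 and KO replicate 3 lay nearest to each other. By the interaction test, the WAT effect was above the culture effect for 9 of 14 relatives, 14 of 20 fibre partners, 14 of 20 receptors, 9 of 15 genes of the TGF-beta list and 5 of 12 basement membrane genes, and below it for 2, 3, 1, 0 and 0; after correction for length and GC content the last list had 1 above and 4 below. Of all genes 27.7% were above and 21.1% below, and after that correction 47.6% passed, 16.4% as above. With 1 fit over all 4 groups, the culture calls of these 5 lists came down to 3 receptors and 1 basement membrane gene, all lower, and those of all genes to 1.01%.

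**Figure D5:**
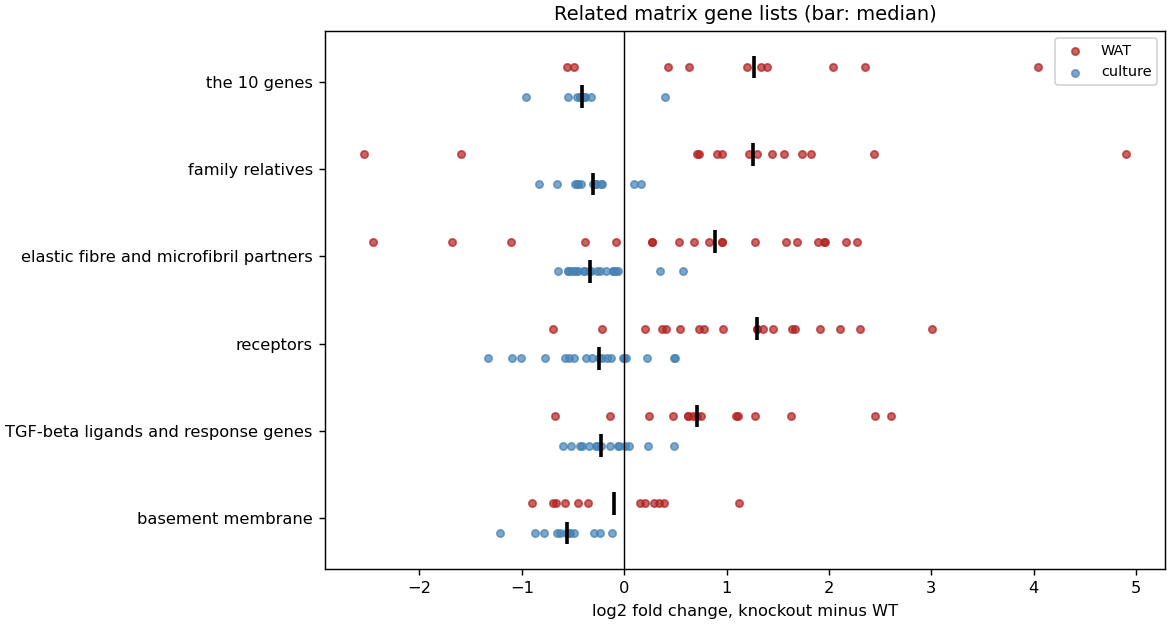
Log2 fold change of each measured gene in the 10 genes and in 5 related lists, for WAT (red) and culture (blue), with black bars at the medians. WAT medians lie between 0.72 and 1.29 except for the basement membrane list (-0.10, or 0.58 with library size only, where the other 4 related lists lie between 1.40 and 1.97), and all culture medians lie below 0.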

How the data were processed

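Unnormalised counts, deposited by the authors as whole numbers for each gene, came in separate tables for WAT and culture with 6 libraries in each. Tools listed in the submitters' processing notes are HISAT2 2.1.0, cutadapt 1.11 and FastQC 0.11.2, with the build GRCm38. How reads were counted, on which annotation and strand, is not given in the sources used here, so reads of overlapping genes cannot be told apart. The MGIEasy mRNA kit was used, per the labels' protocols, and libraries were grouped by title. Loci without a gene name took 0.417% to 0.832% of WAT counts.

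Each table was fitted whole with edgeR 4.0.16 under R 4.3.3 and its quasi-likelihood test (filterByExpr with a minimum count of 10, TMM scaling, Benjamini-Hochberg adjustment over all genes, threshold 0.05), and the interaction over 12 libraries and the shared symbols. SE is the log2 fold change divided by the root of F. Each fit was also run on simulated data in which a small share of genes changed, in random directions. Far more genes moved in WAT, so those runs do not test the scaling there. The biological coefficient of variation was 0.319 for WAT and 0.114 for culture. Levels per kilobase use the longest protein-coding transcript of GENCODE M21, chosen in place of the longest transcript after the data were seen, because that of Postn is a non-coding one.

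Alternatives were RLE size factors, library size only, no count filter, a replicate block, DESeq2 1.42.0, limma 3.58.1 voom, removal of a length and GC trend (values for 85.8% of WAT and 98.0% of culture genes), 1 fit over 4 groups, and leaving out each library. TMM factors were 0.781 to 0.796 in WAT WT and 1.23 to 1.30 in cKO, and library size only moved the median of all WAT genes from 0.12 to 0.80. No 2 libraries of a group agreed within counting error (chi-square over its degrees of freedom 4.81 to 202).

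The 10 genes and all lists were chosen with earlier results of these data known. Named genes are the 10, the 3 of each related list with the smallest p in a comparison, Fam50a, and the nearest genes by distance. Distances used log2 CPM with a prior count of 0.5, and the nearest genes outside the 10 had a mean of at least 5 CPM. Of the 9 cell type lists counts and, where they moved, sums are given, with 7 fibroblast and preadipocyte markers named after their values were seen. Ltbp1 is in 2 related lists.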

Additional observations from a re-analysis of the deposited data

Results flagged for a closer look

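For 8 of the 10 genes the knockout effect differed between WAT and culture by the interaction test of edgeR (WAT effect minus culture effect, log2). The difference was 3.68 for Postn, 3.34 for Fn1, 2.51 for Thbs2, 1.98 for Fbn1, 1.69 for Loxl2, 1.61 for Loxl1, 1.06 for Thbs1 and 0.85 for Lox. Postn was higher in the knockout in both settings. Fn1, Thbs1, Thbs2, Fbn1, Lox and Loxl1 rose in WAT and fell in culture, and Loxl2 rose in WAT and did not pass in culture. Over all genes 48.8% passed this test. Groups of 3 libraries are too small for a test of single outlying samples.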

How the results depend on the processing

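The number of the 10 genes that passed in WAT was 9, and it was 8 with RLE size factors, library size only or DESeq2, 7 without the count filter, 9 with limma voom, 6 with the length and GC trend removed, 10 in 1 fit over all 4 groups and 6 to 8 without 1 library each. In culture it was 9, and it moved to 5 with the length and GC trend removed, to 0 in 1 fit over all 4 groups and to 2 to 8 without 1 library each. For the interaction it was 8, with 10 under library size only and 6 with the trend removed. Over all genes the share that passed in WAT was 52.4%. It was 63% with library size only, 37.7% without the count filter, 47.1% with the trend removed and 39% to 51.6% without 1 library each. The culture share was 19.5%, with 20.9%, 1.01% and 7.04% to 26.7% under the 3 kinds of change named for culture. The interaction share was 48.8%, with 59% under library size only and 47.6% with the trend removed. Values that changed sign were, with library size only, Sparc (0.13) and Tnc (0.18) in WAT and Sparc in the interaction (0.56); with the trend removed, Lox in WAT (-0.39) and in the interaction (-0.00553); and the interaction of Tnc, near 0, with RLE size factors (-0.0287), DESeq2 (-0.0288), limma voom (-0.00406), the trend removed (-0.57) and without 1 library each (-0.13 to 0.21). No gene changed sign in culture. Replicate numbers did not pair the libraries in WAT (same-number correlations of -0.326 to 0.0268, against -0.0146 to 0.339 for different numbers). In culture the same-number correlations were 0.0324 to 0.238, against -0.2265 to 0.0740 for different numbers. Whether the numbers pair the cultures was not tested. With the replicate block 7 of the 10 passed in WAT, 10 in culture and 8 in the interaction, where Tnc was -0.00281, and over all genes 7258 against 8542 passed in WAT and 3824 against 2459 in culture. With the longest transcript of any kind as length, an alternative chosen after seeing the data, the share of Postn was 0.386% in WAT WT and 7.88% in cKO, and 8.45% and 14.5% in culture. The causes of these shifts were not tested. With 3 libraries a group, and 286 or more counts for each of the 10 genes, the spread between libraries limits the precision more than counting does.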

Other observations

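Within families the members parted in WAT; the genes of this paragraph other than Smoc1, Fstl1, Ltbp1, Ltbp4 and Fbn2 were picked after their values were seen. Of the SPARC relatives, Fstl1 (1.73) and Sparcl1 (0.73, SE 0.15, adjusted p = 0.00533) rose, and Smoc1 (-2.54) and Smoc2 (-1.59, SE 0.26, adjusted p = 0.00243) fell. Of the latent TGF-beta binding proteins, Ltbp1 rose (1.28), while Ltbp2 (-2.46, SE 0.36, adjusted p = 0.00171), Ltbp3 (-1.11, SE 0.18, adjusted p = 0.00251) and Ltbp4 (-0.38, SE 0.13, adjusted p = 0.0422) fell. With library size only, just 1 of the 20 fibre partners fell in WAT, so at most 1 of Ltbp2, Ltbp3 and Ltbp4 kept its call. Fbn2, the fibrillin known from development, was at 0.0871, 0.125 and 0 CPM in WAT WT and at 1.45, 1.67 and 3.53 in cKO. The WT values lie at the floor, so the gene passed the count filter through the cKO libraries alone. Its lack of overlap, shared by 35.1% of all genes as higher in cKO, is therefore no separate support. In culture Fbn2 was at 54.9, 58.1 and 48.0 CPM in WT and 24.9, 29.9 and 46.7 in KO.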
